A study of Homo sapiens with 9 samples.

Results

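Classical cadherins are the transmembrane proteins that hold neighbouring cells together at adherens junctions, and catenins are the cytoplasmic proteins that bind their tails. The set described here has 9 of the 41857 genes in the files: the cadherin genes CDH1, CDH3, CDH2, CDH4, CDH11 and CDH13, and the catenin genes CTNNB1, CTNNA1 and CTNND1. They were chosen by name, with earlier results of these data known, and each was found by mapping its symbol to 1 Ensembl gene ID. All 9 passed the filter on low values (at least 10 in at least 3 libraries), as did 15108 genes in all.

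RNA with poly(A) tails was measured in MCF10A, an immortal but non-tumorigenic line of human breast epithelial cells, in 3 groups of 3 biological replicates. The groups were lines with a vector only, human deltaNp63alpha or deltaNp63beta, with expression induced by doxycycline. These are forms of the transcription factor p63 that lack the longer N-terminal part and differ in their C-terminal part. The labels give the genotype of all 9 cultures as WT, and all of them, vector included, received 500 ng/mL doxycycline over 24 h. The labels do not name the promoter, say how the p63 forms were introduced, or say whether a line was 1 clone or a pool. They do not say what the biological replicates shared, and p-values measure the spread between these libraries. In bulk RNA, fewer cells of a type and less RNA per cell cannot be told apart.

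The extracellular repeats of a classical cadherin bind calcium and meet cadherins on the next cell. Inside the cell, beta-catenin or its relative plakoglobin binds the far end of the tail and alpha-catenin links that complex to actin, while p120-catenin binds nearer the membrane and slows removal of the cadherin from the surface. E-cadherin (CDH1) is the main cadherin of simple and luminal epithelia, P-cadherin (CDH3) marks basal cells of breast and skin, and N-cadherin (CDH2) is typical of neural and mesenchymal cells. A change from E- to N-cadherin is the textbook mark of an epithelial-mesenchymal transition.

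The deposited values were normalized estimated counts, with column sums between 22.5 and 23.2 M (M, mega) and depths, from the sum and the step between low values, of about 20.3 to 24.4 M. Changes are log2 fold changes ± SE of value + 1, with p from limma adjusted over all 15108 genes and called under 0.05, and group values are mean ± SD (n = 3). TP63 itself stood at 302.3 ± 38.1 in vector, 6123 ± 1470 in deltaNp63alpha and 5257 ± 1312 in deltaNp63beta, and did not pass the test between the 2 forms (-0.22 ± 0.21, adjusted p = 0.479). The markers of a mammary epithelial line were all present, at levels that differed between groups. KRT5 averaged 55464, 92598 and 146977 in vector, deltaNp63alpha and deltaNp63beta. In the same order KRT8 averaged 5290, 4292 and 5418, KRT18 7057, 7755 and 8862, and EPCAM 172.8, 311.5 and 1424. Among other cell types, the endothelial CDH5, leukocyte PTPRC and CD3E, and fibroblast COL3A1 did not exceed 4.22 in any library. Other genes of those lists were present. The 6 fibroblast markers summed to between 10562 and 10903 in vector, 7746 and 7861 in deltaNp63alpha, and 12392 and 13478 in deltaNp63beta, mostly from FBLN1. The 4 leukocyte markers, in effect CD68 and ITGB2, summed to between 1568 and 1734, 987.8 and 1225, and 725.1 and 783.3 in the same order, and the 4 endothelial markers to between 201.4 and 274.0, 165.7 and 170.2, and 108.7 and 125.0. The leukocyte and endothelial sums were lower with deltaNp63alpha than in vector and lower again with deltaNp63beta, the order of CDH2, and the fibroblast sum was lowest with deltaNp63alpha. Within the fibroblast list the genes went apart. DCN averaged 1211, 349.6 and 165.9 in vector, deltaNp63alpha and deltaNp63beta, also the order of CDH2. FBLN1 (9233, 7224 and 12426) and COL1A1 (236.4, 202.6 and 340.1) were lowest with deltaNp63alpha, and the rest of that list averaged 10.53 or less in each group. The part of all these markers in the results was not tested.

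CDH3 and CDH1 are neighbours on chromosome 16 (GRCh38, GENCODE release 29), CDH3 at 68636189 to 68722616 and CDH1 at 68737225 to 68835548, both on the plus strand and 14608 bases apart. The same chromosome holds CDH11 (64943753 to 65126112, minus strand) and CDH13 (82626803 to 83800640, plus strand). CDH2 lies on chromosome 18 (27950966 to 28177446, minus strand) and CDH4 on chromosome 20 (61252426 to 61940617, plus strand). The catenin genes are CTNNB1 on chromosome 3 (41194741 to 41260096), CTNNA1 on chromosome 5 (138610967 to 138935034) and CTNND1 on chromosome 11 (57753243 to 57819546), each on the plus strand. All 9 are protein coding, and each value is a sum over the whole gene, so isoforms, exons and untranslated parts were not separated. The counting is not stated to use strand. CTNND1 overlaps the read-through gene TMX2-CTNND1 on its strand, so reads could be split between them, but the deposited data hold no value for TMX2-CTNND1. On the same strand CTNND1 also overlaps AP001931.1, which stood at 0.0 to 13.51 in the 9 libraries. CTNNB1 overlaps ULK4 on the other strand, and ULK4 stood at 82.3 to 194.1 in the 9 libraries.

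A promoter sequence in RefSeq was available for 4 of the 9 genes. That of CDH2 is shown because CDH2 was the only cadherin called lower with both p63 forms. CDH11 and CDH13 were also lower on average with both, but were not called with deltaNp63alpha. It covers the 250 bases before the RefSeq start (GRCh38.p14, chr18:28177131-28177380, minus strand, written 5′ to 3′ along the gene), a stretch that lies within the longer span GENCODE gives the gene. Capitals mark 1 GC box (GGGCGG or its complement CCGCCC) and 1 CCAAT box (CCAAT or its complement ATTGG).

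CDH2 promoter: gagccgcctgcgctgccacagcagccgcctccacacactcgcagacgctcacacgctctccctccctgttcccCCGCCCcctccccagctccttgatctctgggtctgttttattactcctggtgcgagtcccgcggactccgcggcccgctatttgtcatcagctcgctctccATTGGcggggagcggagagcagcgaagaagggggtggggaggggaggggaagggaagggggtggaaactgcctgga

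The search covered both strands of the same 250-base window in 35116 promoters, of which 42.6% held a GC box and 32.0% a CCAAT box. The E-box bound by ZEB and Snail factors (CAGGTG or its complement CACCTG) was found in 17.5% of all promoters and 0 times in this one. A p53 family half-site was found in 5.57% of all and 0 times here. These are matches of letters in 1 window and say nothing of binding.

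E-cadherin RNA was higher with both p63 forms, and more so with deltaNp63beta. CDH1 (ENSG00000039068) stood at 652, 467 and 505 in the 3 vector libraries, at 1367, 1294 and 1177 with deltaNp63alpha and at 3898, 4256 and 4309 with deltaNp63beta. The 3 groups did not overlap, and the lowest deltaNp63beta library was above every deltaNp63alpha library. CDH1 rose by 1.25 ± 0.11 with deltaNp63alpha (adjusted p = 1.76e-05) and by 2.95 ± 0.11 with deltaNp63beta (adjusted p = 5.23e-09). As ratios of group means these were 2.36-fold and 7.67-fold. Between the forms, deltaNp63beta was higher by 1.70 ± 0.11 (adjusted p = 7.64e-07), a ratio of 3.25. Only 0.94% of the 15108 genes tested had a larger absolute change than CDH1 with deltaNp63beta, against 3.01% with deltaNp63alpha.

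P-cadherin followed the same order from a higher level. CDH3 (ENSG00000062038) stood at 2679, 2073 and 2248 in vector, at 3903, 4256 and 4236 with deltaNp63alpha, and at 10078, 9751 and 10210 with deltaNp63beta. Again no library of a group reached into the range of another. CDH3 rose by 0.83 ± 0.08 with deltaNp63alpha (adjusted p = 3.06e-05) and by 2.11 ± 0.08 with deltaNp63beta (adjusted p = 5.43e-09), and was 1.28 ± 0.08 higher with deltaNp63beta than with deltaNp63alpha (adjusted p = 5.51e-07). The ratios of means were 1.77, 4.29 and 2.42. In vector the first replicate was the highest of its group for both CDH1 and CDH3.

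N-cadherin went the other way. CDH2 (ENSG00000170558) stood at 1734, 1743 and 1720 in vector, at 1058, 1042 and 1028 with deltaNp63alpha and at 870, 830 and 869 with deltaNp63beta. Its libraries agreed closely within each group, and the groups did not overlap. CDH2 fell by 0.73 with deltaNp63alpha (SE 0.05, adjusted p = 3.29e-06) and by 1.02 with deltaNp63beta (SE 0.05, adjusted p = 5.33e-08). Between the forms it was lower with deltaNp63beta by a smaller amount (-0.28 ± 0.05, adjusted p = 0.00152), so that 0.494 of the vector mean was left with deltaNp63beta and 0.602 with deltaNp63alpha.

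**Figure D1:**
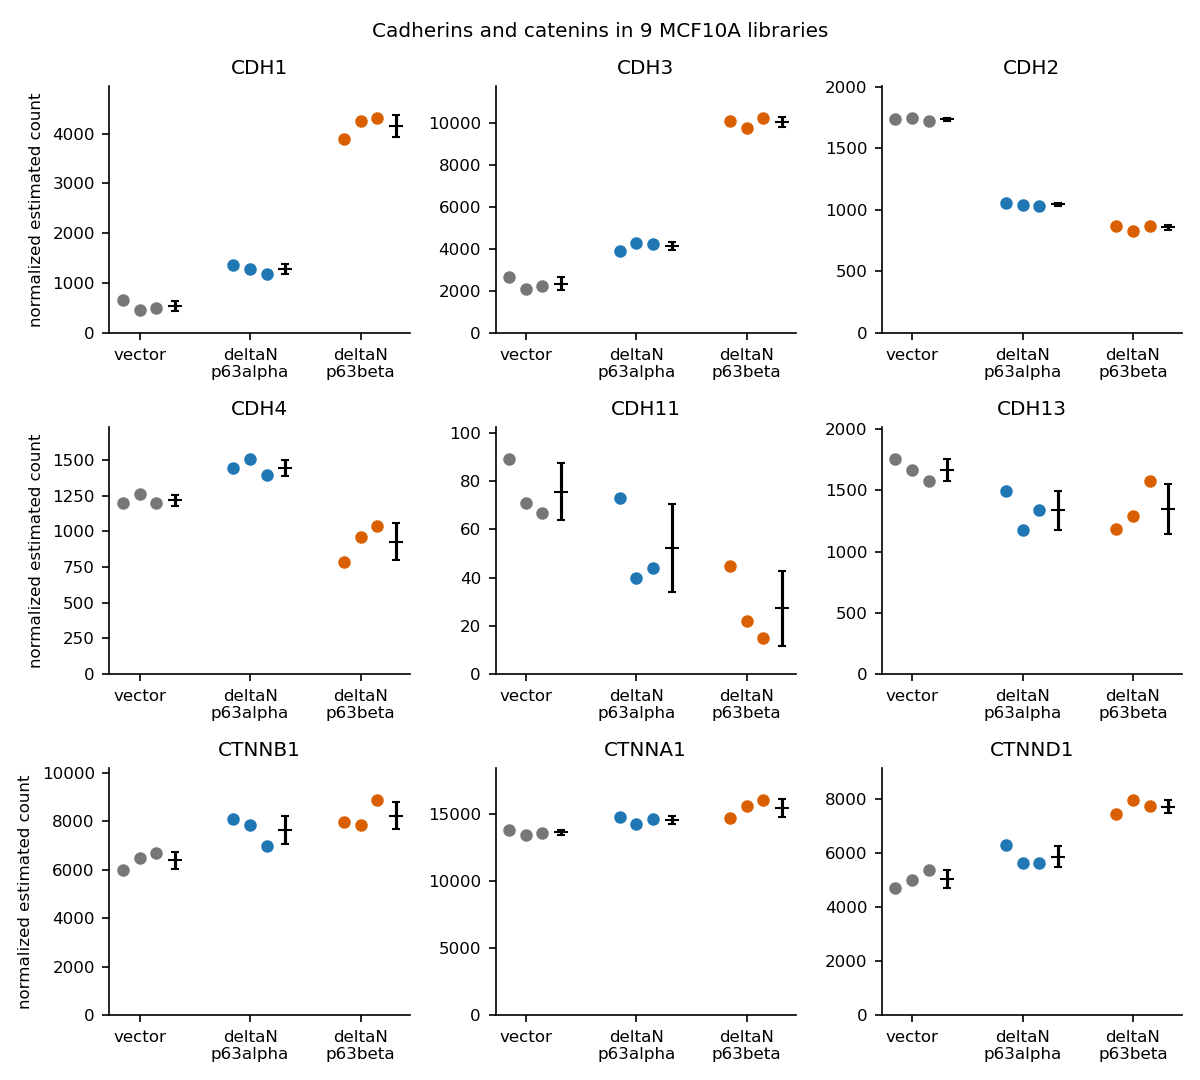
Normalized estimated count (linear axis from 0) of each of the 9 genes in the 9 libraries. Points are libraries, by group, and the black bar beside them is the mean ± SD of 3. CDH1 and CDH3 step up from vector to deltaNp63alpha to deltaNp63beta, CDH2 steps down, and CTNNA1 stays between 13451 and 16044.

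Over the 9 genes, the counts of calls were set beside the same counts over all genes tested, of which the test called many. The 9 genes and the lists below were chosen with earlier results of these data known, so such counts describe the sets and do not test them. With deltaNp63alpha, 4 of 9 were higher (CDH1, CDH3, CTNNB1 and CTNND1) and 1 was lower (CDH2), against 8.13% of all tested genes higher and 6.37% lower. With deltaNp63beta, 5 of 9 were higher (CDH1, CDH3 and the 3 catenins) and 4 lower (CDH2, CDH4, CDH11 and CDH13), against 21.8% and 19.5% of all tested genes. Between deltaNp63beta and deltaNp63alpha, 3 were higher (CDH1, CDH3 and CTNND1) and 2 lower (CDH2 and CDH4), against 17.4% and 15.5%. The median change of the 9 was 0.22, 0.18 and 0.09 in these comparisons, and that of all genes tested lay between -0.01 and 0.00. Both comparisons with vector use the same 3 vector libraries.

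**Figure D2:**
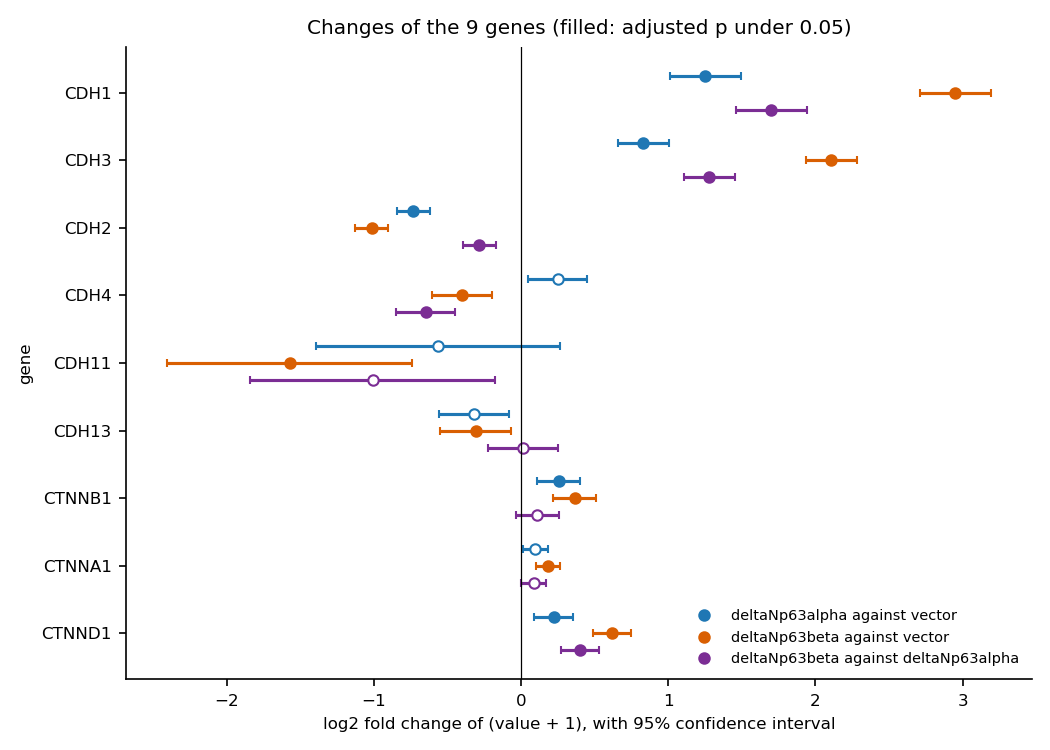
Log2 fold change of value + 1 for each of the 9 genes, with its 95% confidence interval, in the 3 comparisons. Filled points passed the test (adjusted p under 0.05) and open ones did not. CDH1 and CDH3 lie to the right in all 3 comparisons and CDH2 to the left, while CDH4 lies on opposite sides of 0 with the 2 p63 forms.

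Ratios of 2 cadherins within a library do not depend on how libraries were scaled, apart from the pseudocount of 1. The log2 ratio of CDH1 to CDH2 was -1.41, -1.90 and -1.77 in the vector libraries, 0.37, 0.31 and 0.20 with deltaNp63alpha, and 2.16, 2.36 and 2.31 with deltaNp63beta. With no correction for transcript length, the CDH1 value was thus below the CDH2 value in every vector library and above it in every library with a p63 form. Divided by transcript length, as described below, the ranges of the 2 genes overlapped with deltaNp63alpha (241 to 280 and 237 to 244 per kb). The ratio differed from vector by 1.98 ± 0.16 with deltaNp63alpha, or 3.96-fold, and by 3.97 ± 0.16 with deltaNp63beta, or 15.6-fold. The step from deltaNp63alpha to deltaNp63beta was 1.98 ± 0.08, or 3.95-fold.

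The log2 ratio of CDH3 to CDH2 was 0.63, 0.25 and 0.39 in vector, 1.88, 2.03 and 2.04 with deltaNp63alpha, and 3.53, 3.55 and 3.55 with deltaNp63beta. P-cadherin exceeded N-cadherin in all 9 libraries, and the excess over vector grew by 1.56 ± 0.12 and 3.13 ± 0.11. CDH3 to CDH1 moved in the opposite sense: 2.04, 2.15 and 2.15 in vector, 1.51, 1.72 and 1.85 with deltaNp63alpha, and 1.37, 1.20 and 1.24 with deltaNp63beta. P-cadherin stayed above E-cadherin in every library while its lead shrank, by -0.42 ± 0.10 and -0.84 ± 0.06 against vector. None of the 3 ratios overlapped between any 2 groups. In each of the 9 comparisons the 2-sided exact permutation test gave p = 0.1 (adjusted over the 9, 0.1), the smallest that 3 libraries against 3 allow, so a p under 0.05 could not be reached.

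**Figure D3:**
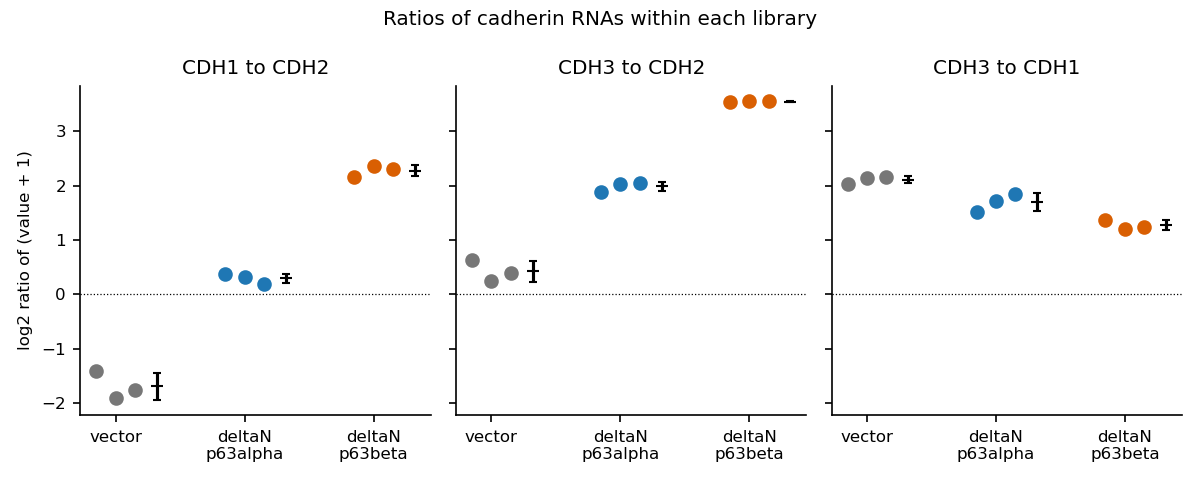
Log2 ratio of value + 1 of 2 cadherin genes in each of the 9 libraries (points), with the group mean ± SD (bar). The dotted line at 0 is equal value, with no correction for transcript length. CDH1 to CDH2 crosses the line between vector and deltaNp63alpha, and CDH3 to CDH1 stays above it.

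To compare levels between genes, values were divided by the length in kb of the longest coding transcript that GENCODE lists, which is not the effective length the authors' tool used. On that scale P-cadherin was the leading classical cadherin in each group. In vector, CDH3 stood at 473 ± 63.3 per kb (421 to 544) and CDH2 at 400.0 ± 2.67 (397 to 402), then CDH4 at 187 ± 5.78, CDH1 at 111 ± 20.0 and CDH11 at 11.0 ± 1.72. With deltaNp63alpha, CDH3 (838 ± 40.2) led, and CDH1 (262 ± 19.6, from 241 to 280) and CDH2 (241 ± 3.41, from 237 to 244) overlapped. With deltaNp63beta, CDH3 (2031 ± 47.9) and CDH1 (849.7 ± 45.8) were both above CDH2 (198 ± 5.24), CDH4 (143 ± 20.3) and CDH11 (3.96 ± 2.28).

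As shares of the summed per-kb values of these 5 genes, CDH2 went from 33.9% ± 2.27 in vector to 15.3% ± 0.404 with deltaNp63alpha and 6.13% ± 0.178 with deltaNp63beta. The share of CDH1 went from 9.32% ± 1.03 to 16.7% ± 1.32 and 26.3% ± 1.08, and that of CDH3 from 39.9% ± 2.61 to 53.4% ± 2.02 and 63.0% ± 1.34. The summed level itself was 1182 ± 80.8 per kb in vector, 1570 ± 31.0 with deltaNp63alpha and 3225 ± 78.7 with deltaNp63beta. Every library with a p63 form (1548 or more) had a higher sum than every vector library (1274 or less). These are mean ± SD of 3 libraries and were not tested.

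**Figure D4:**
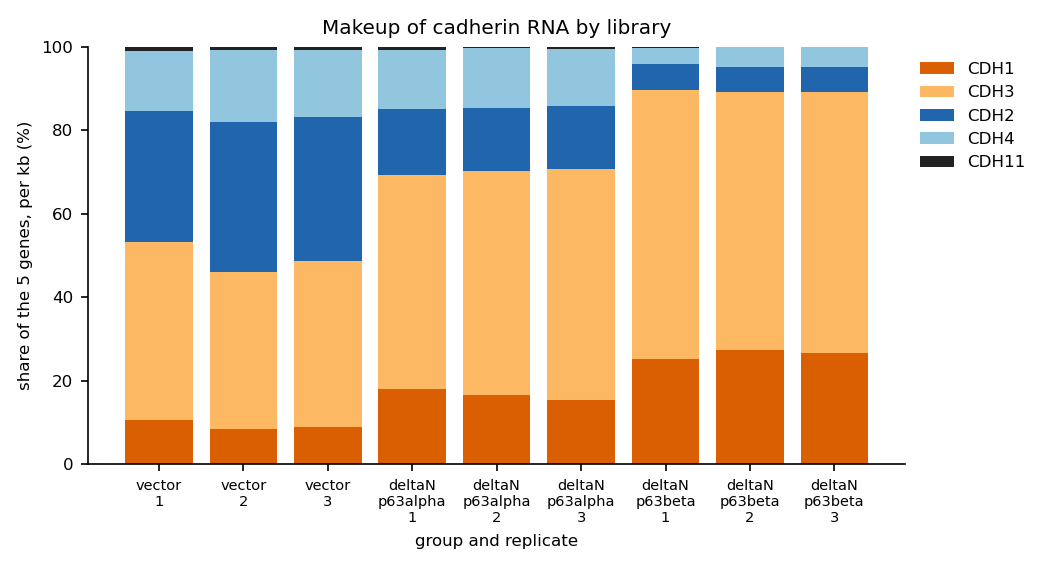
Share of each of 5 classical cadherin genes in their summed value per kb of transcript, 1 bar per library. CDH1 and CDH3 together fill more of the bar from vector to deltaNp63alpha to deltaNp63beta, and CDH2 falls from 33.9% to 6.13% on average.

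R-cadherin (CDH4), a close relative of N-cadherin, was lower than vector with deltaNp63beta and not with deltaNp63alpha. CDH4 (ENSG00000179242) stood at 1197, 1262 and 1196 in vector, at 1441, 1506 and 1395 with deltaNp63alpha, and at 783, 962 and 1041 with deltaNp63beta. Every deltaNp63alpha library was above every vector library, and every deltaNp63beta library below. The difference with deltaNp63alpha did not pass the test (0.25 ± 0.09, 95% interval 0.05 to 0.45, adjusted p = 0.103), though it did in a fit without deltaNp63beta replicate 1 (adjusted p = 0.0189) and in one of the 2 groups alone (adjusted p = 0.017). CDH4 fell by 0.40 with deltaNp63beta (SE 0.09, adjusted p = 0.00461) and was lower with deltaNp63beta than with deltaNp63alpha (-0.65 ± 0.09, adjusted p = 0.000292).

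Cadherin-11 (CDH11), found mainly in mesenchyme and bone, was low throughout. CDH11 (ENSG00000140937) stood at 89.1, 70.8 and 67.0 in vector, 73.2, 39.7 and 44.2 with deltaNp63alpha, and 44.8, 22.1 and 14.8 with deltaNp63beta. The first replicate was the highest in each group. CDH11 fell by 1.57 with deltaNp63beta (SE 0.38, adjusted p = 0.00604). With deltaNp63alpha the change was -0.56 ± 0.38 (adjusted p = 0.382), with a 95% interval from -1.39 to 0.27. Between the forms it was -1.01 ± 0.38 (adjusted p = 0.062), and this was called without deltaNp63beta replicate 1 (-1.43, adjusted p = 0.00804).

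T-cadherin (CDH13) has no cytoplasmic tail, being held in the membrane by a lipid anchor, and so binds no catenin. CDH13 (ENSG00000140945) stood at 1755, 1663 and 1578 in vector, 1494, 1178 and 1340 with deltaNp63alpha, and 1188, 1287 and 1580 with deltaNp63beta. The highest deltaNp63beta library reached the vector range. CDH13 fell by 0.31 with deltaNp63beta (SE 0.11, adjusted p = 0.0396), close to the threshold. That call was lost without any 1 vector library, deltaNp63alpha replicate 3, or deltaNp63beta replicate 1 or 2 (adjusted p from 0.0524 to 0.14). With deltaNp63alpha its change was of like size and not called (-0.32 ± 0.11, adjusted p = 0.0743), but was called without deltaNp63alpha replicate 1 (adjusted p = 0.0467) or deltaNp63beta replicate 3 (adjusted p = 0.0303). Between the forms the 95% interval ran from -0.23 to 0.25. Its level per kb in vector was 207 ± 11.0 by its longest coding transcript of 8042 bases and 612 by its main annotated transcript of 2722 bases, so its rank among the cadherins depends on the transcript and is left out above.

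The 3 catenins rose with deltaNp63beta, each by less than CDH1 and CDH3. Beta-catenin (CTNNB1, ENSG00000168036), which binds cadherin tails and also carries Wnt signals to the nucleus, stood at 6009, 6493 and 6702 in vector, 8087, 7841 and 6992 with deltaNp63alpha, and 7993, 7861 and 8875 with deltaNp63beta. The libraries with a p63 form all lay above vector and overlapped each other. CTNNB1 rose by 0.36 ± 0.07 with deltaNp63beta (adjusted p = 0.00103) and by 0.25 ± 0.07 with deltaNp63alpha (adjusted p = 0.0246). The deltaNp63alpha call was lost without vector replicate 1 or 2 or deltaNp63alpha replicate 1 or 2 (adjusted p from 0.0579 to 0.0915). Between the forms the difference was 0.11 ± 0.07 (adjusted p = 0.228, 95% interval -0.04 to 0.26).

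Alpha-catenin (CTNNA1, ENSG00000044115), the link from beta-catenin to actin, had the highest values of the 9. It stood at 13817, 13451 and 13632 in vector, 14788, 14270 and 14674 with deltaNp63alpha, and 14730, 15641 and 16044 with deltaNp63beta. The vector libraries were below all others, by little. CTNNA1 rose by 0.18 ± 0.04 with deltaNp63beta (adjusted p = 0.00265). With deltaNp63alpha the change was 0.10 ± 0.04 (adjusted p = 0.123), and between the forms 0.09 ± 0.04 (adjusted p = 0.112), which was called without deltaNp63beta replicate 1 (adjusted p = 0.0229).

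CTNND1 (ENSG00000198561) encodes p120-catenin, which binds the part of the cadherin tail next to the membrane. It stood at 4711, 5024 and 5375 in vector, 6316, 5632 and 5650 with deltaNp63alpha, and 7459, 7964 and 7765 with deltaNp63beta. All 3 groups were apart. CTNND1 rose by 0.62 ± 0.06 with deltaNp63beta (adjusted p = 9.11e-06), the largest change of the 3 catenins, and was 0.40 ± 0.06 higher with deltaNp63beta than with deltaNp63alpha (adjusted p = 0.000389). With deltaNp63alpha it rose by 0.22 ± 0.06 (adjusted p = 0.0287), a call lost without vector replicate 1 or 2 or deltaNp63alpha replicate 1 (adjusted p from 0.0788 to 0.104).

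Per kb, CTNNA1 exceeded every cadherin in each group (3559 ± 47.8, 3805 ± 71.1 and 4039 ± 176 in vector, deltaNp63alpha and deltaNp63beta). CTNNB1 (1352 ± 75.0 and 1614 ± 121) was next in vector and deltaNp63alpha, where it stood above CDH3, but with deltaNp63beta CDH3 (1978 to 2071) passed CTNNB1 (1660 to 1874). CTNND1 (859 to 964) and CDH3 (792 to 864) overlapped with deltaNp63alpha by the longest coding transcript, and did not (892 to 1000 for CTNND1) by the main annotated one. The 5 cadherins with a tail summed to 0.878 ± 0.109 of the CTNNB1 level per kb in vector, 0.977 ± 0.0748 with deltaNp63alpha and 1.86 ± 0.0788 with deltaNp63beta. Vector and deltaNp63alpha overlapped in this ratio, and deltaNp63beta stood apart from both. It is a ratio of RNA and was not tested.

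Of 15 other cadherin genes, 4 passed the filter (CDH6, CDH8, CDH10 and CDH24) and 0 were called by limma in any comparison, with the smallest adjusted p at 0.202. None of their 12 unadjusted p-values was under 0.05. Over all genes tested, the shares higher and lower were 8.13% and 6.37% with deltaNp63alpha, and 21.8% and 19.5% with deltaNp63beta. Between the forms they were 17.4% and 15.5%, and 4 genes are too few to set 0 calls apart from such shares. CDH24 stood at 115.3 to 186.6 over the libraries and the other three at 0.605 to 38.4. The 11 that did not pass the filter, CDH5 among them, had values up to 21.6.

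Of 7 other catenin and p120 family genes, 5 were tested. With deltaNp63alpha 3 were higher and 0 lower, with deltaNp63beta 4 higher and 0 lower, and between the forms 1 was higher and 2 lower with deltaNp63beta. Over all genes tested, the shares higher and lower were 8.13% and 6.37%, 21.8% and 19.5%, and 17.4% and 15.5%. Plakoglobin (JUP), the beta-catenin relative shared with desmosomes, stood at 3294, 2939 and 3277 in vector, 4577, 5063 and 4634 with deltaNp63alpha, and 6821, 7266 and 7648 with deltaNp63beta. The groups were apart, and JUP rose by 0.59 ± 0.06 (adjusted p = 6.53e-05) and 1.19 ± 0.06 (adjusted p = 5.77e-08). The other three named by the rule were CTNNAL1, an alpha-catenin relative (0.45 ± 0.05 and 0.20 ± 0.05), PKP4, of the p120 family (0.26 ± 0.05 and 0.29 ± 0.05), and ARVCF, another p120 relative. ARVCF was called with deltaNp63beta (0.61 ± 0.21, adjusted p = 0.0344) and lost that call without any 1 vector or deltaNp63beta library (adjusted p from 0.0634 to 0.0893).

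All 11 genes of the nectin-afadin adhesion system and the links to actin were tested. With deltaNp63alpha 3 were higher and 2 lower, with deltaNp63beta 5 higher and 1 lower, and between the forms 4 higher and 3 lower. The same shares of all genes stand beside these (8.13% and 6.37%, 21.8% and 19.5%, 17.4% and 15.5%), so that 1 of 11 lower with deltaNp63beta was below the share of all genes. Nectin-1 (NECTIN1), an immunoglobulin-type adhesion molecule of the same junction, averaged 2154 ± 145, 3657 ± 159 and 6820 ± 564 in vector, deltaNp63alpha and deltaNp63beta. It rose by 0.77 ± 0.07 and 1.66 ± 0.07 (adjusted p = 1.92e-05 and 1.01e-08). NECTIN3 fell, by 0.95 with deltaNp63beta (adjusted p = 8.16e-05) and by 0.48 with deltaNp63alpha (adjusted p = 0.0218), the second lost without vector replicate 1 or 3 or deltaNp63alpha replicate 2 or 3 (adjusted p from 0.0544 to 0.0756). Afadin (AFDN), which ties nectins to actin, rose with deltaNp63beta (0.50 ± 0.06, adjusted p = 2.8e-05) and stood at 0.11 ± 0.06 with deltaNp63alpha (adjusted p = 0.247). LIMA1, an actin-bundling protein that binds alpha-catenin, rose more with deltaNp63alpha (1.27 ± 0.06, adjusted p = 1.28e-07) than with deltaNp63beta (0.91 ± 0.06, adjusted p = 3.36e-07), and the difference passed the test (-0.37 ± 0.06, adjusted p = 0.000576).

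Among 9 genes of cadherin processing and turnover, all tested, 2 were higher and 1 lower with each form against vector, and 1 was higher and 1 lower between them. With 21.8% and 19.5% of all genes higher and lower with deltaNp63beta, and 17.4% and 15.5% between the forms, these counts were near or below the shares of all genes. With deltaNp63alpha the shares were 8.13% and 6.37%. PCSK6, a proprotein convertase, rose with deltaNp63beta (0.97 ± 0.13, adjusted p = 8.95e-05). FURIN, the convertase known to cleave the E-cadherin precursor, stood at 0.15 ± 0.06 with deltaNp63beta (adjusted p = 0.0766), and was called without deltaNp63beta replicate 1 (0.23, adjusted p = 0.00475). ADAM10, which sheds the outer part of E- and N-cadherin, rose by 0.32 ± 0.05 with deltaNp63beta (adjusted p = 0.000657). With deltaNp63alpha (0.18 ± 0.05, adjusted p = 0.0462) the ADAM10 call was lost without any 1 library except deltaNp63beta replicate 1 or 3 (adjusted p from 0.0545 to 0.168), with equal totals (0.0708), under both other filters (0.0593 and 0.068), under the replicate block (0.0722) and with no trend (0.127). The receptor phosphatase genes PTPRF and PTPRM, whose proteins are found at cell contacts, went apart. PTPRF rose with deltaNp63alpha (0.49 ± 0.05, adjusted p = 9.97e-05). With deltaNp63beta PTPRF was not called (0.13 ± 0.05, adjusted p = 0.0761), except without deltaNp63beta replicate 1 (0.0164). Between the forms it was lower with deltaNp63beta (-0.36 ± 0.05, adjusted p = 0.000442). PTPRM fell with both forms (-0.36 ± 0.08 and -0.40 ± 0.08, adjusted p = 0.0135 and 0.00232), the deltaNp63alpha call being lost with no trend (0.0532).

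Of 8 genes for known repressors of CDH1 transcription, all tested, 0 were higher in any comparison. With deltaNp63alpha 3 were lower (ZEB1, ZEB2 and TWIST2), with deltaNp63beta 5 (those and SNAI1 and SNAI2), and between the forms 3 were lower with deltaNp63beta (SNAI2, ZEB1 and ZEB2). Of all genes tested, 6.37%, 19.5% and 15.5% were lower in these comparisons. SNAI1 was low throughout, averaging 39.18 ± 2.04 in vector, 18.72 ± 8.55 with deltaNp63alpha and 12.99 ± 4.52 with deltaNp63beta. It changed by -1.14 ± 0.43 (adjusted p = 0.107) and -1.58 ± 0.43 (adjusted p = 0.0119). ZEB2 stood at 524.3, 482.6 and 355.4 in vector, 210.0, 181.5 and 185.1 with deltaNp63alpha, and 60.5, 93.6 and 92.1 with deltaNp63beta, a reverse of the order seen for CDH1. It changed by -1.22 ± 0.19 (adjusted p = 0.00143) and -2.46 ± 0.19 (adjusted p = 1.93e-06). ZEB1 changed by -0.90 ± 0.14 and -1.41 ± 0.14 (adjusted p = 0.00149 and 1.6e-05). Its difference between the forms (-0.51 ± 0.14, adjusted p = 0.0192) lost its call on leaving out deltaNp63beta replicate 1 or deltaNp63alpha replicate 1 or 3 (adjusted p from 0.0666 to 0.0791).

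SNAI2, which encodes Slug and is a factor of basal mammary cells, differed between the forms. It stood at 2612, 2713 and 2844 in vector, 2754, 3025 and 3126 with deltaNp63alpha, and 1589, 1541 and 1429 with deltaNp63beta. Vector and deltaNp63alpha overlapped, and deltaNp63beta was below both. SNAI2 fell by 0.84 with deltaNp63beta (SE 0.06, adjusted p = 1.14e-06), stood at 0.12 ± 0.06 with deltaNp63alpha (adjusted p = 0.232), and differed between the forms by -0.97 ± 0.06 (adjusted p = 7.65e-07). TWIST2 fell by 0.56 with deltaNp63beta (SE 0.10, adjusted p = 0.00123). With deltaNp63alpha (-0.38 ± 0.10, adjusted p = 0.0312) its call was lost without vector replicate 1 or 2 or any 1 deltaNp63alpha library (adjusted p from 0.0649 to 0.113), under the replicate block (0.0655) and with no filter (0.0698).

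A list of 20 genes of the beta-catenin pool and Wnt target genes had 15 tested. With deltaNp63alpha 4 were higher and 1 lower, with deltaNp63beta 6 and 1, and between the forms 2 and 2. Of all genes, 8.13% and 6.37%, 21.8% and 19.5%, and 17.4% and 15.5% were called, so the counts between the forms were below the shares of all genes. DKK1, a secreted Wnt antagonist and itself a Wnt target, averaged 5653 ± 337 in vector, 2731 ± 313 with deltaNp63alpha and 782.1 ± 105 with deltaNp63beta. It changed by -1.05 ± 0.10 and -2.86 ± 0.10 (adjusted p = 3.2e-05 and 3.47e-09). CTNNBIP1, an inhibitor that keeps beta-catenin from TCF factors, rose by 0.65 ± 0.09 and 0.66 ± 0.09 (adjusted p = 0.000447 and 0.000116). RNF43, a ubiquitin ligase that removes Wnt receptors, rose by 0.95 ± 0.15 and 0.93 ± 0.15 (adjusted p = 0.00155 and 0.000541). LGR4, the R-spondin receptor, rose with deltaNp63beta (0.49 ± 0.06, adjusted p = 6.17e-05). The general Wnt target AXIN2 was near the floor of the data, between 3.71 and 27.5 in all 9 libraries, and was not called. NKD1, also of this list, averaged 14.66, 20.65 and 79.66 in vector, deltaNp63alpha and deltaNp63beta. It was called with deltaNp63beta (2.5 ± 0.51, adjusted p = 0.00217) and not with deltaNp63alpha (0.60 ± 0.51, adjusted p = 0.503). Between the forms (1.90 ± 0.51, adjusted p = 0.0141) its call was lost without deltaNp63alpha replicate 3 or deltaNp63beta replicate 1 or 2 (adjusted p from 0.0505 to 0.0572).

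**Figure D5:**
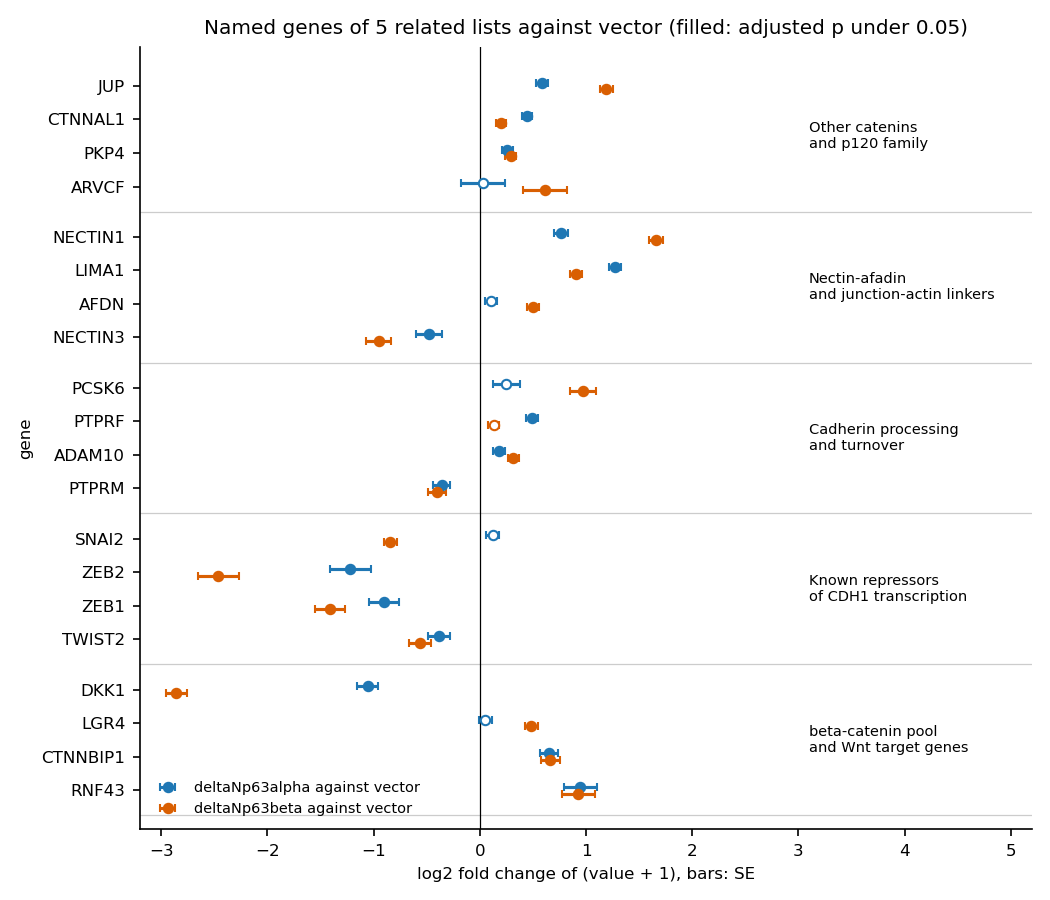
Log2 fold change of value + 1 (bars: SE) against vector for up to 4 genes of each of 5 related lists, chosen by smallest adjusted p. Filled points passed the test (adjusted p under 0.05). JUP, NECTIN1 and LIMA1 lie right of 0 with both forms, ZEB1, ZEB2 and DKK1 left of 0, and SNAI2 is left of 0 with deltaNp63beta alone.

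The genes whose values followed CDH1, CDH3 and CDH2 most closely were ranked by Pearson r of log2(value + 1) over the 9 libraries, among 10634 tested genes with a symbol and a mean of at least 100. For CDH1 they were ARHGEF16 (r = 0.9973), AHCY (r = 0.996) and CDH3 (r = 0.9958). For CDH3 they were RBCK1 and MINK1 (both r = 0.997) and then CDH1. For CDH2 they were ATP8B2 (r = 0.9925), COL4A2 (r = 0.9923) and the growth factor gene FGF2 (r = 0.9903). With 3 groups in the 9 libraries, such values describe mainly the order of the group means. ARHGEF16, for example, averaged 279.2, 480.8 and 1062, and FGF2 averaged 1686, 742.2 and 631.0, in vector, deltaNp63alpha and deltaNp63beta.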

How the data were processed

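Poly(A) RNA from 9 MCF10A cultures was analysed. The authors deposited 1 signal value per gene and library, a normalized estimated count. The submitters' processing notes name kallisto 0.46.2, DESeq2 with no version, and GRCh38. Which step gave the deposited numbers is not given in the sources used here. Low values were multiples of a step within 0.1 step in 59.9% to 63.5% of cases, so whole reads were not recovered and no count test was run.

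Genes with at least 10 in at least 3 libraries were fitted on log2(value + 1) with limma 3.58.1 (R 4.3.3, trend and robust moderation), 9 libraries in 1 fit, no block, Benjamini-Hochberg adjusted p under 0.05. The pseudocount shrinks fold changes of low genes. Ratios used the exact permutation test over libraries. Python 3.11.15 with pandas 2.3.3, scipy 1.17.1 and matplotlib 3.10.9 did the rest.

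The 9 genes and the lists were chosen with earlier results of these data known. Named were the 9, TP63, up to 4 genes per list by smallest adjusted p, and the 3 genes most like CDH1, CDH2 and CDH3. FURIN, AXIN2, NKD1, SNAI1, NECTIN4 and the neighbours of CDH1 were named after their values were seen. Alternatives were other pseudocounts, filters and scalings, a replicate block, 2 groups alone, no trend, a 1.5-fold test, and each library left out. Transcript lengths other than the longest were added after seeing the data.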

Additional observations from a re-analysis of the deposited data

Results flagged for a closer look

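The libraries of CDH4 lay on opposite sides of vector with the 2 p63 forms: all 3 deltaNp63alpha libraries (1395 to 1506) were above vector (1196 to 1262) and all 3 deltaNp63beta libraries (783 to 1041) below. The difference between the forms passed limma's test (-0.649 ± 0.092, adjusted p = 0.000292). The deltaNp63alpha side alone did not (0.25 ± 0.09, adjusted p = 0.103). The deltaNp63beta side did (-0.40 ± 0.09, adjusted p = 0.00461).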

How the results depend on the processing

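No value of the 9 genes that was called reversed. The 3 calls on CDH1 held under every alternative, and those on CDH2 and CDH3 under all but a test against a 1.5-fold change (adjusted p = 0.396 and 0.273 with deltaNp63alpha, and 1.0 for CDH2 between the forms). Under that test, genes called higher and lower numbered 134 and 47 with deltaNp63alpha (1229 and 963 without it), 516 and 387 with deltaNp63beta (3293 and 2953), and 231 and 187 between the forms (2625 and 2340). Members called were then 1 higher and 0 lower, 2 and 1, and 2 and 0 between the forms. With deltaNp63alpha, a replicate block, or no trend, left 2 members higher. The fit of the 2 groups alone made 2 lower, adding CDH13 (adjusted p = 0.0368), and added CDH4 (0.017) and CTNNA1 (0.0493) to those higher. With libraries left out, members higher ranged from 2 to 5 and lower from 1 to 2, and genes lower from 640 (without deltaNp63alpha replicate 3) and 641 (without vector replicate 3) to 1019. The replicate block gave 1053 and 780 genes with deltaNp63alpha, 3121 and 2818 with deltaNp63beta, and 2435 and 2148 between the forms. Over all genes tested, no sign was seen that the numbers pair the libraries. Residuals of same-numbered libraries correlated at -0.117 to 0.0813, those of differently numbered ones at -0.144 to 0.122, and 2 of 9 libraries correlated best with their own number. Such correlations cannot tell whether replicates shared a day or culture. Members that lost a call under the block were CTNNB1 (adjusted p = 0.0539) and CTNND1 (0.0612) with deltaNp63alpha, and CDH13 (0.052) with deltaNp63beta, and the same 3 with no trend (0.0976, 0.105 and 0.095). CDH11 between the forms gained one under the block (0.023). CTNNA1 with deltaNp63alpha passed in the 2 groups alone (0.0493). The cause of these shifts was not tested. The CDH3 to CDH1, CDH3 to CDH2 and CDH1 to CDH2 ratios kept their sign of change under each alternative. CDH13 per kb moved with the transcript length used (612, 491 and 497 by the main annotated one). CDH11, with the lowest values, had the widest intervals.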

Other observations

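CDH3 and CDH1 rose together and lie side by side, so the genes within 500 kb of the pair were read as well, a window chosen after seeing the data. Of 17 other tested genes there, 3 (17.6%) were called higher and 1 (5.88%) lower with deltaNp63alpha, and 4 (23.5%) higher and 1 (5.88%) lower with deltaNp63beta. Between the forms 0 were higher and 2 (11.8%) lower with deltaNp63beta, where CDH3 and CDH1 were both higher. Over all genes tested these shares were 8.13% and 6.37%, 21.8% and 19.5%, and 17.4% and 15.5%. ESRP2, an epithelial splicing regulator, averaged 1107 ± 79.1, 1509 ± 134 and 1597 ± 103 in vector, deltaNp63alpha and deltaNp63beta (0.45 and 0.53, adjusted p = 0.00329 and 0.000313). HAS3, a hyaluronan synthase, averaged 75.2 ± 19.8, 233.9 ± 36.6 and 330.8 ± 27.9 (1.64 and 2.15, adjusted p = 0.000127 and 4.47e-06). TANGO6, the nearest tested gene after CDH1, averaged 699.6 ± 54.3, 778.2 ± 60.5 and 769.7 ± 86.0 and was not called (0.15 and 0.14, adjusted p = 0.35 and 0.294). ZFP90, the nearest tested gene before CDH3, averaged 428.7 ± 40.1, 542.4 ± 29.4 and 573.5 ± 11.5 and was called higher with both forms (0.34 and 0.42, adjusted p = 0.0234 and 0.00247).

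NECTIN4, outside the genes named by rule, averaged 122.8 ± 24.9 in vector, 42.0 ± 12.5 with deltaNp63alpha and 125.7 ± 26.4 with deltaNp63beta. It fell with deltaNp63alpha (-1.55 ± 0.26, adjusted p = 0.00199) and not with deltaNp63beta (0.04 ± 0.26, adjusted p = 0.928), and the difference between the forms passed the test (1.58 ± 0.26, adjusted p = 0.000766). CDH1, JUP and NECTIN1 were higher with deltaNp63beta than with deltaNp63alpha too, but were higher than vector with both.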
